A study of Mus musculus with 4 samples.

Results

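The genes described here are those of the integrin alpha and beta subunits, the laminin chains and the nidogens, which are the receptors and the ligands of cell adhesion to basement membrane and to other cells. They were taken by symbol from the deposited count table, as every name that reads Itga or Itgb followed by a subunit designation, Lama, Lamb or Lamc with a number, or Nid with a number. The rule found 39 genes of 24943: 18 alpha subunits, 8 beta subunits, 11 laminin chains and 2 nidogens. RNA-seq of poly(A) RNA was done on 4 lymphoma samples, in a study of a TP63 fusion in mouse lymphomas. The labels give every sample as spleen cells of a transgenic mouse with a spleen enlarged by tumour, after lysis of red cells, and give neither strain, age, transgene nor promoter. The protocol names no sorting step, and each library can hold RNA of spleen cells other than tumour. The samples are titled GW19, GW95, GW255 and GW328 and are called lymphomas 1 to 4, numbered in accession order. They share every label, so they form 1 group of 4, and what follows compares single libraries by fixed rules of size, without any test. Whether each sample is a different animal is not stated, so part of the spread may be technical.

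An integrin is a pair of one alpha and one beta chain. The beta 2 and beta 7 families are largely restricted to leukocytes and bind cell-surface ligands such as the ICAMs, VCAM-1, MAdCAM-1 and E-cadherin, whereas the beta 1 chain pairs with many alpha chains and binds collagens, laminins and fibronectin. A laminin is a cross-shaped trimer of one alpha, one beta and one gamma chain, and nidogens link laminin to collagen IV in the basement membrane. In spleen, integrins hold lymphocytes in follicles and sinuses and guide their traffic, and laminins and nidogens are made mainly by stromal cells and vessels.

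The libraries held between 7773546 and 9602413 counts, and levels are given as CPM (counts scaled to a common library size, with edgeR TMM factors of 0.838 to 1.17). Where a gene had no count, its level could still be that of 3 counts, which is 0.294 to 0.379 CPM depending on the library. Markers of B cells summed to 70.4, 1532, 4718 and 6504 CPM in lymphomas 1 to 4, and those of T cells to 4686, 3631, 545 and 745 CPM. Lymphoma 1 was thus lowest in B cell markers and lymphoma 3 lowest in T cell markers. Most of the T cell sum in lymphoma 3 came from Zap70, the T cell receptor kinase gene (433, 318, 482 and 81.7 CPM). The CD3 chain gene Cd3d was at 653, 480.4, 0.981 and 55.1 CPM, so lymphomas 3 and 4 differed more than their sums do. Among markers of other cells, those of neutrophils (27.9, 185, 101 and 652 CPM), macrophages (120.4, 316, 146 and 413 CPM), NK cells (3.16, 125, 34.8 and 197 CPM) and dendritic cells (35.7, 62.3, 14.4 and 116 CPM) were highest in lymphoma 4. Endothelial markers summed to between 71.6 and 155 CPM, mostly from Pecam1, which leukocytes also express (95.9 ± 46.8 CPM, SD, n = 4). Markers of fibroblasts and stroma summed to at most 20.2 CPM, of epithelium to at most 20.8 CPM, of megakaryocytes to at most 5.79 CPM and of pancreas to at most 5.28 CPM. In whole-spleen RNA, fewer cells of a type and less RNA per cell cannot be told apart.

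Lymphoma 2 lay at a near-constant ratio to lymphoma 1 over genes restricted to lymphoma 1, but not over every gene. Over the 162 genes that lymphoma 1 expressed at 10 CPM or more and at least 8-fold above both lymphomas 3 and 4 (in CPM + 1), lymphoma 2 lay at 0.683 of lymphoma 1 in the median, with quartiles of 0.647 and 0.726. Of the genes described here, Itga9 and Lamb2 met that rule. Their ratios of lymphoma 2 to lymphoma 1 were 0.758 (95% counting interval 0.624 to 0.919) and 0.581 (0.405 to 0.830), and that of Lama5, picked with its values in view, was 0.589 (0.370 to 0.926). The median of 0.683 lies inside each of these 3 intervals, which are wide. Itga9 and Lamb2 are among the 162 genes that give this median, and Lama5 was picked. The overlap is therefore no independent evidence of a shared ratio. The ratios of Itgb1 (0.893), Itgb3 (1.12), Itgal (1.18), Itgb2 (1.23), Itgav (1.46), Itga6 (1.49), Itgb7 (1.76) and Itgam (2.63) lay above 0.683. Those of Itga4 (53.4) and Lamc1 (157), which had 21 counts and 1 count in lymphoma 1, lay far above it. No gene of the 13543 expressed stood 8-fold above its nearest neighbour in lymphoma 1, and none stood 8-fold below it in lymphoma 2 (0 each, with at least 10 CPM on the high side). For lymphoma 2 on the high side the number was 5 (0.0369%), and for lymphoma 4 on the low side 63 (0.465%). Whether the libraries of lymphomas 1 and 2 share material was not tested. The main counts are also given without each library.

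**Figure D1:**
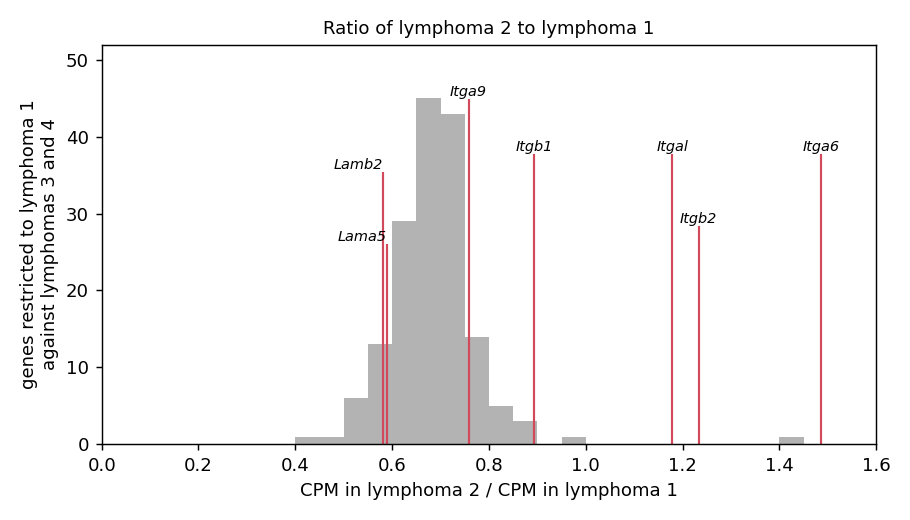
Histogram of the ratio of CPM in lymphoma 2 to CPM in lymphoma 1 (x axis) over the 162 genes restricted to lymphoma 1 against lymphomas 3 and 4 (y axis, number of genes), with the ratios of 7 adhesion genes as red lines whose heights carry no value. The bulk lies around 0.683. Lamb2 and Lama5 lie below the lower quartile of 0.647 and Itga9 above the upper quartile of 0.726, with counting intervals that hold 0.683. Lamb2 and Itga9 are themselves among the 162 genes. Itgb1, Itgal, Itgb2 and Itga6 lie further to the right.

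Of the 39 genes, 30 reached 1 CPM in at least 1 library and are called expressed, as were 54.3% of all genes. The other 9, among them Itga11, Lama2, Lama4 and Nid2, had at most 8 counts in any library, and Itgb6, Lama1 and Lama3 had 0 in all. The integrins made up most of the signal: their CPM summed to 939, 1325, 416 and 2659 in lymphomas 1 to 4, against 21.5, 38.5, 47.3 and 254 CPM for laminins and nidogens. Lymphoma 4 thus had the highest sum in both groups, and lymphoma 3 the lowest integrin sum. Differences between the tumours were large. In 12 of the 30 expressed genes the range from the lowest to the highest library was at least 8-fold in CPM + 1, which 16.3% of all 13543 expressed genes reached. The 30 differed by a median of 6.54-fold, against 2.98-fold over all expressed genes. A gene can enter the 30 through 1 high library alone, so these figures describe the expressed genes and not the whole set of 39. Without lymphoma 2 the number stayed 12 (16.2% of all genes). Without lymphoma 1, 3 or 4 it was 8 (10.4%), 8 (10.8%) or 9 (8.77%), so the share over all genes was lower as well. The choice of pseudocount matters as well, since with 0.25 CPM in place of 1 CPM the number was 22 (26.4% of all genes).

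Of the 30, 18 were highest in lymphoma 4, where 34% of all expressed genes were, 5 in lymphoma 3 (background 30.4%), 4 in lymphoma 1 (29.4%) and 3 in lymphoma 2 (6.32%). The lowest library was lymphoma 1 for 13 genes (35.7% of all genes), lymphoma 3 for 11 (21.3%), lymphoma 4 for 3 (33.2%) and lymphoma 2 for 0 (5.07%), and 3 genes had no single lowest library. Without lymphoma 2, 21 of 30 were highest in lymphoma 4, as were 37.0% of all genes. Adhesion genes are long: the median exonic length was 6590.5 bases for the 30 and 4268 bases for all expressed genes. When expressed genes were split by exonic length into 3 equal classes, 19 of the 30 fell in the longest. In that class the median log2 difference of lymphoma 4 from lymphoma 1 was 0.71, against -0.36 in the shortest class. After the trend on exonic length was removed, 16 of the 30 were highest in lymphoma 4, where 32.6% of all genes then were.

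**Figure D2:**
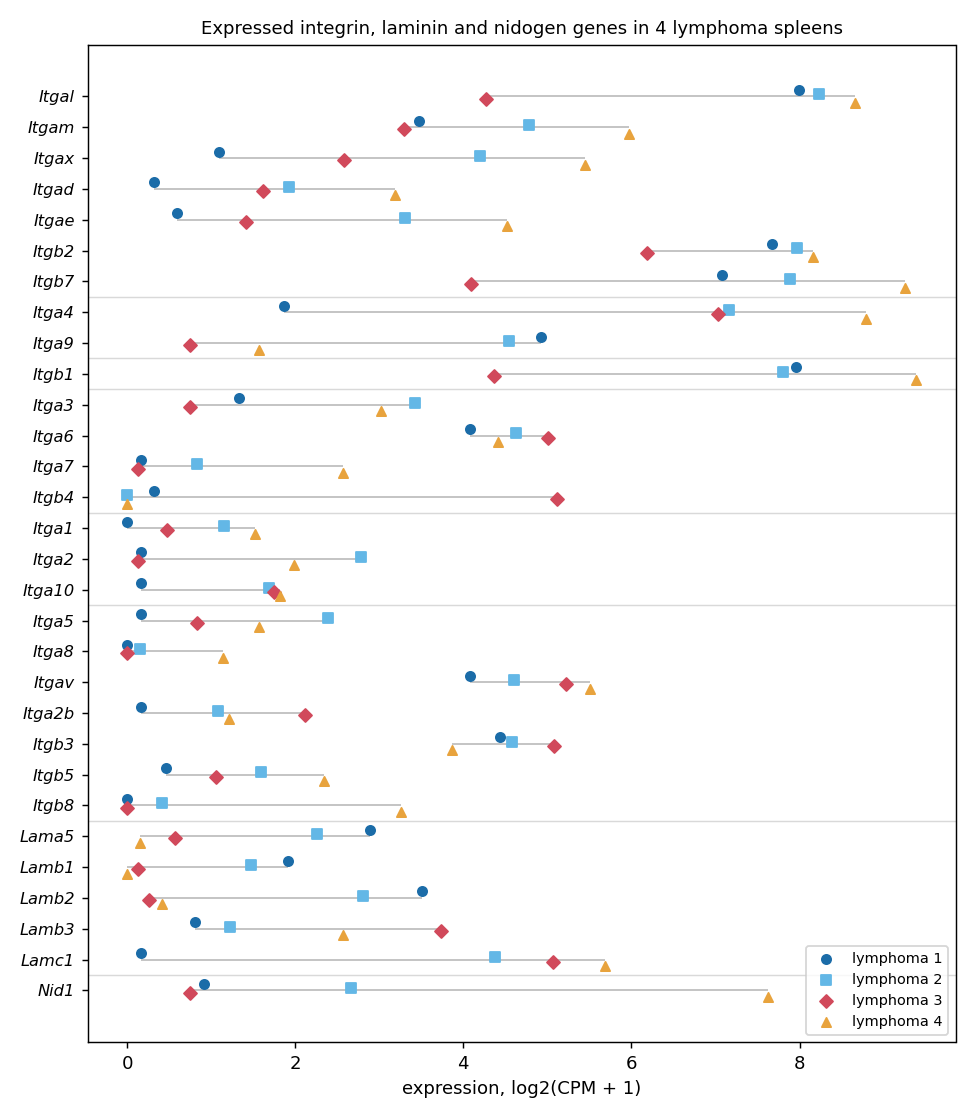
Expression of the 30 expressed genes as log2(CPM + 1) (x axis), 1 row per gene and 1 symbol per library, with a grey line from the lowest to the highest library and thin rules between functional groups. The triangles of lymphoma 4 lie at the right end for 18 genes, and the diamonds of lymphoma 3 lie far left for Itgal, Itgb7 and Itgb1.

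Windows upstream of 4 of the most variable genes are shown, because the results turn on these genes. Each is at most 250 bases before the RefSeq start (GRCm38.p6, 5′ to 3′ on the gene's strand), cut where an annotated exon begins, which left 199 bases for Nid1 and 241 for Itgb7. Capitals mark the ETS core GGAA and the RUNX motif TGTGGT, each on either strand.
Itga4 (chr2:79255176-79255425, plus strand): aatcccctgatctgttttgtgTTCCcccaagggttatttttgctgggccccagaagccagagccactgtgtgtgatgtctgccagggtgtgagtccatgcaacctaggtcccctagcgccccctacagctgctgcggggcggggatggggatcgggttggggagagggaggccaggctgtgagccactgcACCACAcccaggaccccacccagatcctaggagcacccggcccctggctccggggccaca
Itgb7 (chr15:102231945-102232185, minus strand): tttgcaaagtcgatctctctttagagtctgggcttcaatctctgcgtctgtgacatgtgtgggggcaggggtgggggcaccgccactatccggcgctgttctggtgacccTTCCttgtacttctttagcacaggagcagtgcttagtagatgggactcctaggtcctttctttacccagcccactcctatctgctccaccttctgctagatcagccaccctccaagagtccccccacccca
Itgb1 (chr8:128685404-128685653, plus strand): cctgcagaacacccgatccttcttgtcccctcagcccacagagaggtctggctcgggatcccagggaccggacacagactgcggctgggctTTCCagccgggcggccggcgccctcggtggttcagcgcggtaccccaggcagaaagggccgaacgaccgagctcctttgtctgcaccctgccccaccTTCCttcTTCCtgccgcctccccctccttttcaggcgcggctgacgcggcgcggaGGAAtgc
Nid1 (chr13:13437352-13437550, plus strand): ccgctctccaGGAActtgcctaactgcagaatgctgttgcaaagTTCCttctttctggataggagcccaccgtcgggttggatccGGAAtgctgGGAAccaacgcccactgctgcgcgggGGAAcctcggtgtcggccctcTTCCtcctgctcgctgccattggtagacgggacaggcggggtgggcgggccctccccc
The Itga4 window held 1 RUNX match and 1 ETS core, the Itgb7 window 1 ETS core, the Itgb1 window 4 ETS cores and the Nid1 window 6. The RUNX letters occur in 14.05% of all 32851 windows of 250 bases in the RefSeq table and in 2 of the 27 windows of the genes described here, of which 24 had an entry. The ETS core occurs in 93.45% of all windows, so its presence sets no window apart. A match is a description of letters and not a binding site.

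The 7 leukocyte integrin genes summed to 603, 842, 124 and 1432 CPM in lymphomas 1 to 4. All 7 were highest in lymphoma 4, where 34% of all expressed genes were. Of the 7, 4 were lowest in lymphoma 3 (background 21.3%) and 3 in lymphoma 1, near the background of 35.7%. Itgal encodes the alpha L chain of LFA-1, which binds ICAMs and holds lymphocytes to other cells. It was at 254, 299.6, 18.4 and 404 CPM in lymphomas 1 to 4 (244 ± 163, SD, n = 4). Lymphoma 3 lay apart below the others, at 13.8-fold (counting interval 11.9 to 16.2) under lymphoma 1, the nearest, and 22.0-fold (19.0 to 25.6) under lymphoma 4. Its partner Itgb2, the beta 2 chain, was at 203, 250.5, 71.8 and 284 CPM (202 ± 93.2, SD, n = 4), a narrower range of 3.91-fold in CPM + 1. Lymphoma 3 was again the lowest. Per length it held 18.3 FPKM of Itgb2 and 1.95 FPKM of Itgal.

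The other beta 2 partners had lower levels. Itgam, the alpha M chain of Mac-1 on myeloid and NK cells, was at 10.1, 26.5, 8.83 and 61.7 CPM. Itgax, the alpha X chain typical of dendritic cells, was at 1.14, 17.4, 5.005 and 42.6 CPM. Both were highest in lymphoma 4, as were the summed neutrophil, macrophage, NK and dendritic cell markers, whose part in these levels was not tested. Itgad, the alpha D chain, reached 8.14 CPM in lymphoma 4 and had 2 counts in lymphoma 1. Itgam, Itgax and Itgad lie side by side on chromosome 7 (128062640 to 128223816, GRCm38), and Itgal lies nearby (127296260 to 127335138). Of these 4 neighbours, Itgax and Itgad were near or under the floor in lymphoma 1, where Itgal was at 254 CPM.

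The beta 7 chain and its alpha partners differed in which tumours held them. Itgb7, which pairs with alpha 4 for homing to gut and with alpha E for binding E-cadherin, was at 134, 236, 16.1 and 609 CPM. The gene lies on chromosome 15 (102215995 to 102231944, minus strand, GRCm38). Lymphoma 4 lay 37.9-fold (32.4 to 44.5) above lymphoma 3 and 4.55-fold (4.26 to 4.86) above lymphoma 1. Itga4, the alpha 4 chain of the VCAM-1 and MAdCAM-1 receptors, was at 2.65, 142, 129.6 and 442 CPM, and lies on chromosome 2 (79255426 to 79333123, plus strand). Lymphoma 1, with 21 counts, lay apart below the other 3 libraries, 48.9-fold (31.8 to 79.2) under lymphoma 3, the nearest of them. The gene is long, and with the length trend removed the levels were 4.23, 140.8, 129.2 and 278 CPM, and the range of Itga4 in CPM + 1 was 53.4-fold in place of 121-fold. Itgae, the alpha E chain of intraepithelial T cells and some dendritic cells, was at 0.505, 8.92, 1.67 and 21.9 CPM. Per length, in the authors' FPKM, the alpha 4 and alpha E transcripts together came to 0.00612, 0.129, 1.32 and 0.156 of beta 7 in lymphomas 1 to 4. Lymphoma 1 therefore carried beta 7 RNA almost without RNA for either known partner, and lymphoma 3 carried more alpha 4 than beta 7 RNA. With CPM per exonic length in place of FPKM, the same quotients were 0.00620, 0.142, 1.66 and 0.166.

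Itga9, the alpha 9 chain, which is close to alpha 4 in sequence and binds tenascin and osteopontin, was highest in lymphoma 1, where Itga4 was lowest. It was at 29.4, 22.3, 0.687 and 1.98 CPM, so lymphomas 1 and 2, the libraries highest in T cell markers, were high. Lymphoma 4 was low with 18 counts, and lymphoma 3, with 7 counts, was near the floor. The part of T cell RNA in the Itga9 level was not tested.

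Itgb1, the beta 1 chain shared by most matrix receptors, was at 248, 222, 19.6 and 668 CPM (289 ± 272, SD, n = 4). Lymphoma 3 lay apart below the others, at 11.3-fold (9.76 to 13.1) under lymphoma 2. Lymphoma 4 lay 2.69-fold (2.56 to 2.83) above lymphoma 1. In all, 6 of the 30 expressed genes had 1 library 8-fold or more from its nearest neighbour, with at least 10 CPM on the high side, as 3.54% of all expressed genes had. Itgal and Itgb1 were low in lymphoma 3 (background 0.657%), and Itga4 and Lamc1 were low in lymphoma 1 (0.761%). Itgb4 was high in lymphoma 3 (0.82%) and Nid1 in lymphoma 4 (0.812%). Without lymphoma 2 there were 10 (8.03% of all genes).

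Among the laminin receptors, Itga6 had a narrow range and Itgb4 a wide one. Itga6, whose product pairs with beta 1 or beta 4, was at 15.9, 23.6, 31.1 and 20.3 CPM, a range of 1.90-fold in CPM + 1. Itgb4, the hemidesmosome chain that pairs with alpha 6 alone, had 2, 0, 343 and 0 counts (chromosome 11, 115974709 to 116008412, GRCm38). Its 33.7 CPM in lymphoma 3 was at least 100.6-fold higher than in lymphoma 2 and at least 102-fold higher than in lymphoma 4, taking 3 counts per library as the floor. Per length, Itga6 stood at 0.790 of Itgb4 in lymphoma 3 (FPKM), in the one library with more than 2 counts of Itgb4. Epithelial markers summed to 3.28, 3.68, 5.89 and 20.8 CPM, of which Krt18 alone made 12.2 CPM in lymphoma 4. Epcam, the list's most abundant gene, was highest in lymphoma 3 (2.15, 2.79, 4.91 and 3.74 CPM), and Krt5 and Krt14, keratins of the basal layer, had 0 counts throughout. The part of epithelial RNA in the Itgb4 level was not tested. The other laminin-binding chains were low, with Itga3 at 0.687 to 9.70 CPM and Itga7 at 0.0981 to 4.95 CPM.

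Receptors that recognise the RGD peptide in fibronectin and vitronectin were led by Itgav and Itgb3. Itgav, the alpha V chain, was at 15.9, 23.3, 36.2 and 44.6 CPM, so lymphoma 4 lay 2.80-fold (2.29 to 3.45) above lymphoma 1. Its range in CPM + 1 was 2.70-fold, near the median of all expressed genes, and 1.56-fold with the length trend removed. Itgb3, which pairs with alpha V or with the platelet chain alpha IIb, was at 20.6, 23.0, 32.7 and 13.6 CPM, with lymphoma 4 lowest. Itga2b, which encodes alpha IIb, was at 0.126 to 3.34 CPM, and 8 of 9 megakaryocyte markers stayed below 1 CPM in every library, Pf4 among them. The remaining marker, Gp1ba, was at 0.126, 1.45, 5.79 and 2.97 CPM, highest in lymphoma 3 as were Itga2b and Itgb3. The part of platelet RNA in the Itgb3 and Itga2b levels was not tested. Itgb8, a chain that with alpha V activates latent TGF-beta, had 0, 3, 0 and 78 counts, so lymphoma 4 (8.58 CPM) was at least 22.6-fold above lymphoma 1 and at least 29.1-fold above lymphoma 3. Itga5, the fibronectin receptor chain, and Itgb5 were at most 4.24 and 4.07 CPM, and Itga8 reached 1.21 CPM in lymphoma 4 only.

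Collagen receptors had low levels. Itga1 and Itga2, found on activated T and NK cells, were at most 1.87 and 5.91 CPM, and Itga10 was at 0.126 CPM in lymphoma 1 and between 2.23 and 2.53 CPM in the others. Itga11, a fibroblast receptor, had at most 1 count.

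No library but lymphoma 2 held more than 5 counts for each of a laminin alpha, beta and gamma chain. Of the 5 laminin alpha genes only Lama5 was expressed, at 6.44, 3.79, 0.491 and 0.110 CPM. Lamb2, a beta chain, was also higher in lymphomas 1 and 2, at 10.4, 6.02, 0.196 and 0.330 CPM, and Lamb1 was at 2.78, 1.78, 0.0981 and 0 CPM. Lamc1, the gamma chain of most laminins, ran the other way, at 0.126, 19.9, 32.4 and 50.6 CPM. It had 1 count in lymphoma 1 and 178 to 460 counts elsewhere, so its ratio of lymphoma 2 to lymphoma 1 was 157 with a counting interval of 27.8 to 6242. Lymphoma 1 thus had RNA for alpha 5 and 2 beta chains with almost none for a gamma chain, whereas lymphomas 3 and 4 had gamma 1 RNA with almost none for an alpha chain. Lymphoma 2 had both, with Lama5 and Lamb2 at 0.589 and 0.581 of their levels in lymphoma 1. Lamb3, the beta chain of the epidermal laminin-332, was at 0.758, 1.34, 12.3 and 4.95 CPM. Lama3, the alpha chain gene of that trimer, had 0 counts in every library. Lymphoma 3 was highest for Lamb3 as for the laminin-332 receptor chain Itgb4, and lay 2.48-fold (1.75 to 3.57) above lymphoma 4.

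Nid1, the laminin and collagen IV linker nidogen-1 (chromosome 13, 13437551 to 13512269, plus strand), was high in lymphoma 4 alone by the 8-fold rule. It had 7, 48, 7 and 1792 counts, or 0.884 (interval 0.356 to 1.82), 5.35 (3.95 to 7.10), 0.687 (0.276 to 1.42) and 197 CPM (188 to 206). Lymphoma 4 lay 36.8-fold (27.6 to 50.1) above lymphoma 2, the nearest, and Nid1 made up 81.8% of the summed FPKM of laminins and nidogens there. Of genes that accompany nidogen in basement membrane, the perlecan gene Hspg2, picked with its values in view, also had its highest level in lymphoma 4 (0.632, 1.78, 0.0981 and 29.4 CPM). The collagen IV genes were not: all 6 stayed below 1 CPM in every library. The macrophage marker Adgre1 (3.16, 10.3, 2.45 and 69.2 CPM) and the dendritic cell marker Siglech (0.126, 2.68, 2.36 and 40.7 CPM) had lymphoma 4 highest as well, and their part in the Nid1 level was not tested. Stroma markers summed to 20.2, 18.8, 17.9 and 8.69 CPM, largely through Pdgfrb (16.2, 11.6, 10.7 and 0.330 CPM), whereas Dcn (10 counts) and Cxcl13 (6 counts) had counts in lymphoma 4 alone. Endothelial markers had their highest sum in lymphoma 4, mostly from Pecam1 (146 CPM there), which leukocytes also express. Of the 7 expressed, 4 were highest in lymphoma 4 (34% of all genes) and 1 was lowest there (33.2%). The vessel gene Cdh5 was at 0, 0.669, 0.785 and 4.40 CPM. Egfl7, the list's most variable gene, was at 23.4, 16.6, 8.83 and 0.550 CPM, and Stab2 at 0, 13.0, 1.86 and 0.110 CPM. The part of stroma and vessels in the Nid1 level was not tested either. Nid2 had at most 8 counts.

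**Figure D3:**
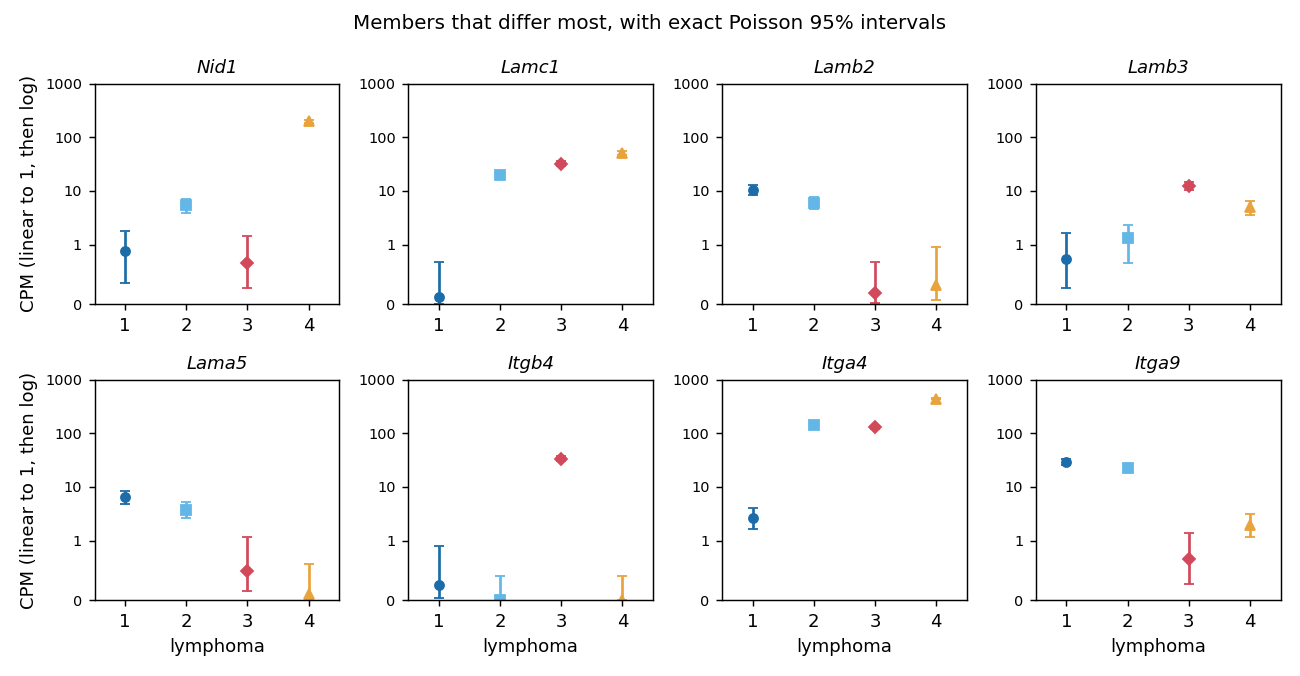
CPM of 8 genes (y axis, linear from 0 to 1 and logarithmic above) in lymphomas 1 to 4 (x axis), with exact Poisson 95% intervals that cover counting error only. Nid1 is high in lymphoma 4 and Itgb4 in lymphoma 3, while Itga4 and Lamc1 are low in lymphoma 1, where Lamb2, Lama5 and Itga9 are at their highest.

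Because levels of different genes compare only per length, the makeup of the integrins was taken from the authors' FPKM as each chain's share of all alpha or all beta chains in a library. Itgal made up 78.5%, 60.4%, 11.4% and 47.8% of alpha FPKM in lymphomas 1 to 4, and Itga4 0.351%, 11.4%, 35.4% and 23.2%. In lymphoma 3, Itga4, Itga6 (17.4%) and Itgav (15.7%) all ranked above Itgal, which led in the other 3 libraries. Among beta chains, Itgb2 made up 39.95%, 38.6%, 54.9% and 20.2%, Itgb7 28.3%, 38.4%, 14.0% and 47.7%, and Itgb1 30.5%, 21.4%, 10.3% and 31.1%. In lymphoma 3, Itgb4 made up 11.3% and Itgb3 8.64%. With CPM per exonic length in place of FPKM these were 10.7% and 12.4%, so the order of the 2 chains turned. The summed beta FPKM was 109, 156, 33.2 and 327, so the large shares of the minor chains in lymphoma 3 stand on a low total. The summed FPKM of the alpha partners of beta 2 was 0.582, 0.663, 0.227 and 0.877 of Itgb2, lowest in lymphoma 3.

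**Figure D4:**
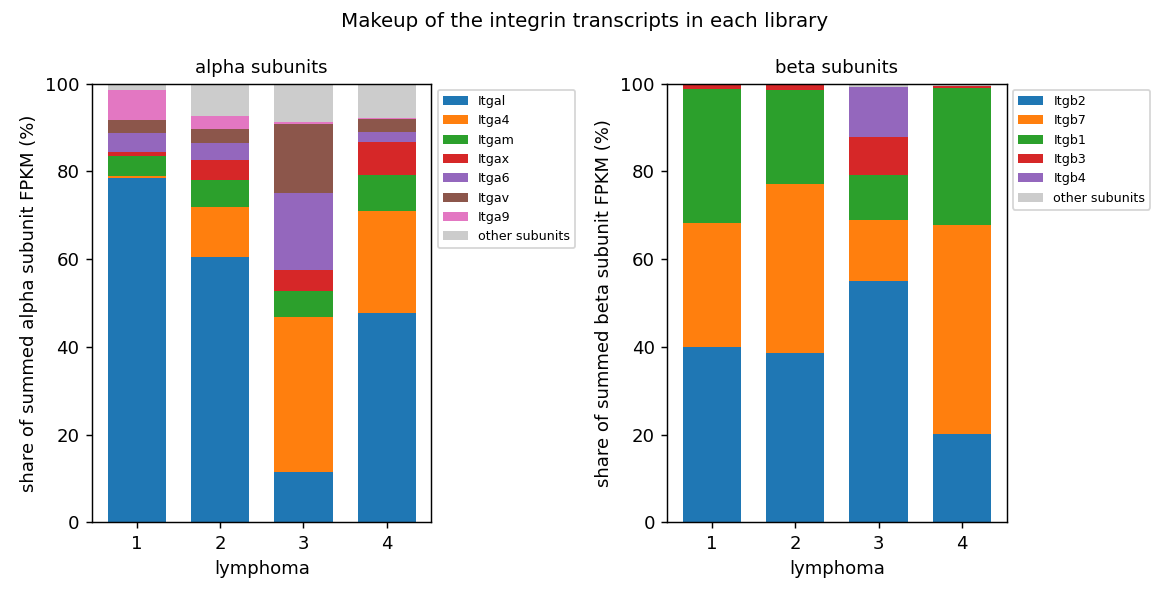
Share of each chain in the summed FPKM of alpha subunits (left) and beta subunits (right), in percent (y axis), for lymphomas 1 to 4 (x axis). Itgal fills most of the alpha bar in lymphoma 1 and little of it in lymphoma 3, where Itga4, Itga6 and Itgav are large and Itgb4 appears among the beta chains.

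Genes that act with the integrins were read from lists of activators, kinases, ligands and matrix. Of 31 genes that activate integrins or tie them to actin, 28 were expressed (background 54.3%) and 9 had a large spread (background 16.3%). The median range of the 28 was 4.33-fold. The filamin gene Flna was the most abundant, at 366, 530.4, 178 and 684 CPM. Actn1, the alpha-actinin gene with the largest spread of the list, was at 112, 124, 3.93 and 53.1 CPM, low in lymphoma 3 like Itgal and Itgb1. Fermt3, the kindlin gene of blood cells, and Tln1, the talin gene, were picked with their values in view. Fermt3 varied little, at 355, 303, 287 and 187 CPM, and Tln1 was at 65.9, 299.6, 242 and 673 CPM. Fermt1 and Fermt2, the kindlins of other tissues, had 0 counts.

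Of 23 integrin signalling genes, 22 were expressed (background 54.3%) and 7 had a large spread (background 16.3%). Of the 22, 15 were lowest in lymphoma 1 (35.7% of all genes) and 13 highest in lymphoma 4 (34%). Lck, the T cell Src kinase, led the list at 879, 665, 315 and 145 CPM. The kinase gene Syk was the most variable, at 5.05, 315, 204 and 1114 CPM.

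Ligands were expressed at about the share of all genes (54.3%). Of 13 cell-surface ligands 8 were expressed and 1 had a large spread (12.5%, background 16.3%). It was Thy1, a T cell surface protein that binds leukocyte integrins, at 1958, 1408, 1.47 and 91.7 CPM. Madcam1, whose product is the ligand of the alpha 4 beta 7 pair, had 0 counts, and Vcam1, picked with its values in view, was at most 6.36 CPM. Of 15 matrix ligands 8 were expressed and 0 had a large spread (background 16.3%). Tgfb1, whose latent form binds alpha V integrins, was at 146, 166, 338 and 117 CPM and the fibronectin gene Fn1 at 11.5, 86.7, 21.2 and 43.8 CPM.

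Of 15 other basement membrane genes 6 were expressed (background 54.3%). Of the 6, 3 had a large spread (background 16.3%), namely Hspg2, Agrn and Fbln1. Fbln1, the fibulin-1 gene, had 1240, 912, 0 and 0 counts, the same pair of high libraries as Itga9, Lama5 and Lamb2. Agrn, the agrin gene, picked with its values in view, had 51.5, 39.7, 3.14 and 5.94 CPM. Of 7 laminin receptors outside the integrin family, all were expressed (background 54.3%). A large spread was found in 1 (14.3%, near the background of 16.3%), the syndecan gene Sdc1 at 165, 118, 9.32 and 11.5 CPM. The most abundant was Rpsa, a ribosomal protein gene whose product is also known as a laminin receptor (7484 ± 3820 CPM, SD, n = 4).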

How the data were processed

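The authors deposited whole-number gene counts. The submitters' processing notes name STAR 2.4.2a, Cufflinks 2.2.1 and the mm10 build. A second deposited table, taken here to hold FPKM from Cufflinks, names no unit, and 5 of its columns match no sample label and were not used. The authors' annotation, strandedness and filtering are not stated in the labels or headers, so reads of a gene and an overlapping antisense gene may not have been separated. In 26 rows the gene name had become a date. These rows, 0.191% to 0.201% of counts, were left out. The remaining 24943 genes were scaled with edgeR 4.0.16 TMM factors in R 4.3.3, computed from the 13543 expressed genes (at least 1 CPM before TMM in any library). GENCODE M21 (GRCm38, which is mm10) gave positions and exonic lengths. Sequences are from RefSeq (GRCm38.p6). Intervals for single levels are exact Poisson and for ratios exact binomial, both at 95%, and cover counting error only. PCR copies are not independent molecules.

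A large spread means an 8-fold or greater difference in CPM + 1 between the highest and lowest library. The pseudocount understates changes near the floor. The genes and lists were chosen with earlier results of these data known. Genes at 10 CPM or more in a library (17 of the 39) are given in every library, the other 13 expressed genes mainly by range. Each list of integrin partners, ligands, other basement membrane genes and other laminin receptors is represented by its most abundant gene (by mean) and its most variable (by SD of log2). Genes of these lists outside this rule are marked, apart from Fermt1, Fermt2, Madcam1 and the collagen IV genes. The lists of cell type markers are given as sums. Single markers were named with their values in view and are not marked. One gene of the set is not reported by name here. The rules were tested on simulated counts. Alternatives were DESeq2 1.42.0 size factors, library totals, the FPKM table, removal of the length trend, other filters, pseudocount and fold, and leaving out each library.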

Additional observations from a re-analysis of the deposited data

Results flagged for a closer look

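In 5 of the 30 expressed genes the highest or lowest of the 4 libraries was far from the other 3 by Dixon's gap-to-range criterion. The criterion was taken at 95% on log2(CPM + 1), a nominal rate of about 1 in 20 groups. That rate does not apply to Itgb4, Itga8 and Itgb8. They count as expressed only through their high library, with the others at or near 0, so a large gap follows from the filter. The share of all genes that meet the criterion was not computed. Itgal was low in lymphoma 3 at 18.4 CPM, against 254 to 404 CPM in the others. Itgb4 was high in lymphoma 3 at 33.7 CPM, against 0 to 0.253 CPM. Itga10 was low in lymphoma 1 at 0.126 CPM, against 2.23 to 2.53 CPM. Itga8 was high in lymphoma 4 at 1.21 CPM, against 0 to 0.112 CPM, which is 11 counts against at most 1. Itgb8 was high in lymphoma 4 at 8.58 CPM, against 0 to 0.335 CPM.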

How the results depend on the processing

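The number of expressed genes, of genes with a large spread and of genes standing apart stayed within 1.5 times under DESeq2 size factors, library totals and removal of the length trend. The last lost Itgb8 and gained Lama5 among the 12 genes with a large spread, and 11 were shared. The FPKM table, with thresholds in FPKM, gave 19 expressed genes (44.5% of all genes), 5 with a large spread (8.28% of all expressed genes) and 2 standing apart (1.53%). It gave 2 highest in lymphoma 1 (25.6%), 0 highest in lymphoma 2 (8.33%) and 6 lowest in lymphoma 3 (18.8%). The same pseudocount weighs more on that scale. Requiring a mean of at least 5 CPM left 16 genes (41.1% of all genes). Of these 1, 0 and 11 were highest in lymphomas 1, 2 and 4 (34.4%, 4.69% and 30.5% of all genes kept). Lowest in lymphomas 1, 3 and 4 were 7, 7 and 1 (34.8%, 21.8% and 38.5%). Without a filter 8 were highest in lymphoma 3 (30.6%). With a pseudocount of 0.25 CPM 22 had a large spread (26.4% of all expressed genes), and with a 4-fold rule 20 did (35.7%). With 1 library left out, 27 to 30 genes were expressed, and those standing apart numbered 4 to 10 (4.12% to 8.03% of all expressed genes). Those lowest in lymphoma 1 numbered 13 to 23 (38.7% to 45.4%) and in lymphoma 2 1 to 5 (8.90% to 26.6%). Lowest in lymphoma 3 were 20 of 30 without lymphoma 1 (34.9%) and 11 of 30 without lymphoma 2 (23.9%). Without lymphoma 4 there were 12 of 27 (38.9%). Those lowest in lymphoma 4 numbered 4 to 5 (33.8% to 44.3%). Highest in lymphoma 2 were 7 of 30 without lymphoma 1 (30.6%) and 5 of 29 without lymphoma 3 (12.5%). Without lymphoma 4 there were 14 of 27 (22.0%). Those highest in lymphoma 3 numbered 5 to 8 (28.9% to 44.0%). The shares over all genes thus moved as well. Of the 12 genes, 4 lost a large spread without lymphoma 1 (Itga4, Itgax, Lamb2, Lamc1), 4 without lymphoma 3 (Itgal, Itgb1, Itgb4, Itgb7) and 3 without lymphoma 4 (Itgae, Itgb8, Nid1). No paired analysis was possible because all samples form 1 group. With 1 group there is no error for a difference between tumours, and genes of few counts, such as Itga8 and Lamb1, are limited by depth.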
